A study of Mus musculus with 23 samples.

Results

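Testosterone is made by the Leydig cells that lie between the seminiferous tubules of the testis. The 10 genes described here are Lhcgr, Nr5a1, Star, Tspo, Cyp11a1, Fdx1, Cyp17a1, Hsd17b3, Srd5a1 and Insl3. They encode steps of that synthesis and its control, except that Srd5a1 acts on testosterone itself and Insl3 encodes a Leydig cell peptide. They were picked by gene symbol from the deposited count table, which lists 28861 genes. Each symbol had 1 row, so 0 of them were repeated, and all 10 passed the filter on low counts that left 22873 genes. The largest differences lay between strains: in NZO/HlLtJ the receptor gene Lhcgr was at 3.25-fold and the last-step enzyme gene Hsd17b3 at 3.06-fold of C57BL/6J, while Cyp11a1, the gene of the first enzymatic step, was lower. In CAST/EiJ Cyp11a1 was higher and Cyp17a1, a later step, lower than in C57BL/6J. None of the 10 was called by diet.

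As background, luteinising hormone from the pituitary binds its receptor on Leydig cells and raises cyclic AMP, which drives both the quick delivery of cholesterol into mitochondria and the slower upkeep of the enzyme genes. Inside mitochondria the side-chain cleavage enzyme turns cholesterol into pregnenolone. Enzymes of the smooth endoplasmic reticulum then carry pregnenolone through progesterone and androstenedione to testosterone. Leydig cells also secrete the peptide INSL3, which is widely used as a sign of their number and maturity.

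Testis RNA was measured in 23 libraries from wild-type male mice of 3 inbred strains. The mice went onto their diet at 6 weeks of age and tissue was taken at 16 weeks; the labels give no other treatment. The control diet is labelled 10% fat and the high fat, high sugar diet 44% fat, and both carry the label fiber, so fiber was common to all groups. C57BL/6J, the strain of the mouse reference genome, gave 4 libraries per diet. Wild-derived CAST/EiJ mice gave 3 on the 10% and 4 on the 44% diet. NZO/HlLtJ, a strain prone to obesity and diabetes, gave 4 per diet. The title of the series names the interaction of genotype and diet as its subject. Whole testis was used, so a change in the number of Leydig cells and in RNA per Leydig cell cannot be told apart in the level of a single gene. The part of each was not tested. Replicate numbers were given here in accession order and only name a library. The labels do not say that libraries came from separate mice, so p-values measure the spread between these libraries.

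Per library, the total of estimated counts, in units of 1000000, was 21.9 to 38.4 for C57BL/6J, 33 to 78.7 for CAST/EiJ and 31.9 to 43.4 for NZO/HlLtJ. The 10 genes together took between 0.0444% and 0.137% of the counts of a library, with single-gene counts from 50 for Tspo up to 28080 for Cyp17a1. The tissue label was checked on Prm1, a gene of spermatids, which stood at 1275 ± 137 CPM (counts per 1000000, scaled by TMM; SD, n = 23). Over 33 replicate pairs the chi-square of counts per degree of freedom was 3.45 to 19.6, above what counting error alone gives. Crisp1, a gene of the epididymis, reached 99 CPM in CAST/EiJ 44% fat replicate 2 and 13 CPM in C57BL/6J 10% fat replicate 2. In an earlier analysis of these data C57BL/6J 10% fat replicate 4, NZO/HlLtJ 10% fat replicate 4 and NZO/HlLtJ 44% fat replicate 3 stood apart from the rest. Genes were tested with the quasi-likelihood F test of edgeR, p was adjusted by Benjamini-Hochberg over the 22873 genes, and a gene was called at an adjusted p below 0.05.

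The start regions of Lhcgr and Hsd17b3, which had the largest differences of the 10 genes between NZO/HlLtJ and C57BL/6J, and of Cyp11a1, which differed in the other direction, are shown first. RefSeq windows (GRCm38.p6) of 250 bases before the start were found for 6 of the 10 genes, 7 windows in all because Cyp11a1 has a pair of starts. Star, Cyp17a1, Nr5a1 and Tspo had no entry. Lhcgr is shown from chr17:88792015-88792264 (minus strand), Hsd17b3 from chr13:64089202-64089451 (minus strand) and the downstream start of Cyp11a1 from chr9:58014702-58014951 (plus strand), 5′ to 3′. Capitals mark matches, on either strand, to AGGTCA or CAAGG, the parts of the element CAAGGTCA to which the factor encoded by Nr5a1 is known to bind.
Lhcgr: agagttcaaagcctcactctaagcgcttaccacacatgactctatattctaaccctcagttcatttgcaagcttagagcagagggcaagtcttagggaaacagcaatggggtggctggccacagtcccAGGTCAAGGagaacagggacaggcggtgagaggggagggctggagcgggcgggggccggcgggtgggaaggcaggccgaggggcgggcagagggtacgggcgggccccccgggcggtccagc
Hsd17b3: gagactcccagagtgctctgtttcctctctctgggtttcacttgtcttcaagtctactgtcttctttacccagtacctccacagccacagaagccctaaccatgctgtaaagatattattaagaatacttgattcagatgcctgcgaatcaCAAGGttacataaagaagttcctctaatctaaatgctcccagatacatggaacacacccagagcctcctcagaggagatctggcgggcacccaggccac
Cyp11a1: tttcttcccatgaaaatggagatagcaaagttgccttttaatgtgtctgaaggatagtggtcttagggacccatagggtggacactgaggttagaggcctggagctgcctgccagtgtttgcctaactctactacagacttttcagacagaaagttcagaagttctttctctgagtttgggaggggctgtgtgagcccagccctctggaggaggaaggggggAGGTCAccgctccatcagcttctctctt

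The Lhcgr window held AGGTCA, 122 bases before the start, run together with CAAGG, so these matches overlap. In the Cyp11a1 window shown AGGTCA lay 28 bases before the start, while the window of its upstream start, not shown, held no match. In the Hsd17b3 window CAAGG lay 99 bases before the start. Over all 7 windows AGGTCA was present in 2 and CAAGG in 4, and the joined CAAGGTCA in 0. Among 32851 RefSeq windows of the same length the shares were 14%, 46% and 1.33%. A match is a description of letters in the reference strain only, because the sequences of CAST/EiJ and NZO/HlLtJ were not used here.

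Per kilobase of exon, Insl3 and then Cyp17a1 had the highest level in each strain. In C57BL/6J Insl3 stood at 219.9 ± 15.2 CPM per kb (SD, n = 8), followed by Cyp17a1 at 103.2 ± 18.5. Cyp11a1 at 22.8 ± 3.41 and Star at 21.69 ± 5.31 did not differ beyond their spread. Hsd17b3 followed at 13.71 ± 0.814, Nr5a1 at 6.84 ± 0.703 and Fdx1 at 5.312 ± 0.546. Tspo at 2.71 ± 0.444, Srd5a1 at 1.246 ± 0.179 and Lhcgr at 1.045 ± 0.189 CPM per kb closed the order, the last pair lying within their spread. In NZO/HlLtJ Hsd17b3, at 42.04 ± 5.02 CPM per kb, stood above Star, at 17.49 ± 7.52, and Cyp11a1, at 16.12 ± 4.80 (n = 8 each). In CAST/EiJ Cyp11a1 at 31.82 ± 5.15 CPM per kb stood between Cyp17a1 at 60.05 ± 11.9 and Star at 18.92 ± 5.06 (n = 7 each). Hsd17b3, Star and Cyp11a1 thus changed places between strains in the order per kilobase. Exon lengths come from GENCODE M21 on GRCm38, the build named in the submitters' processing notes. They count every base in any annotated exon of a gene, and the order depends on them. In CPM not divided by length, Hsd17b3 in NZO/HlLtJ had a lower mean, 58.48 ± 6.98, than Star, 71.95 ± 30.9, and Cyp11a1, 77.43 ± 23.1.

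**Figure D1:**
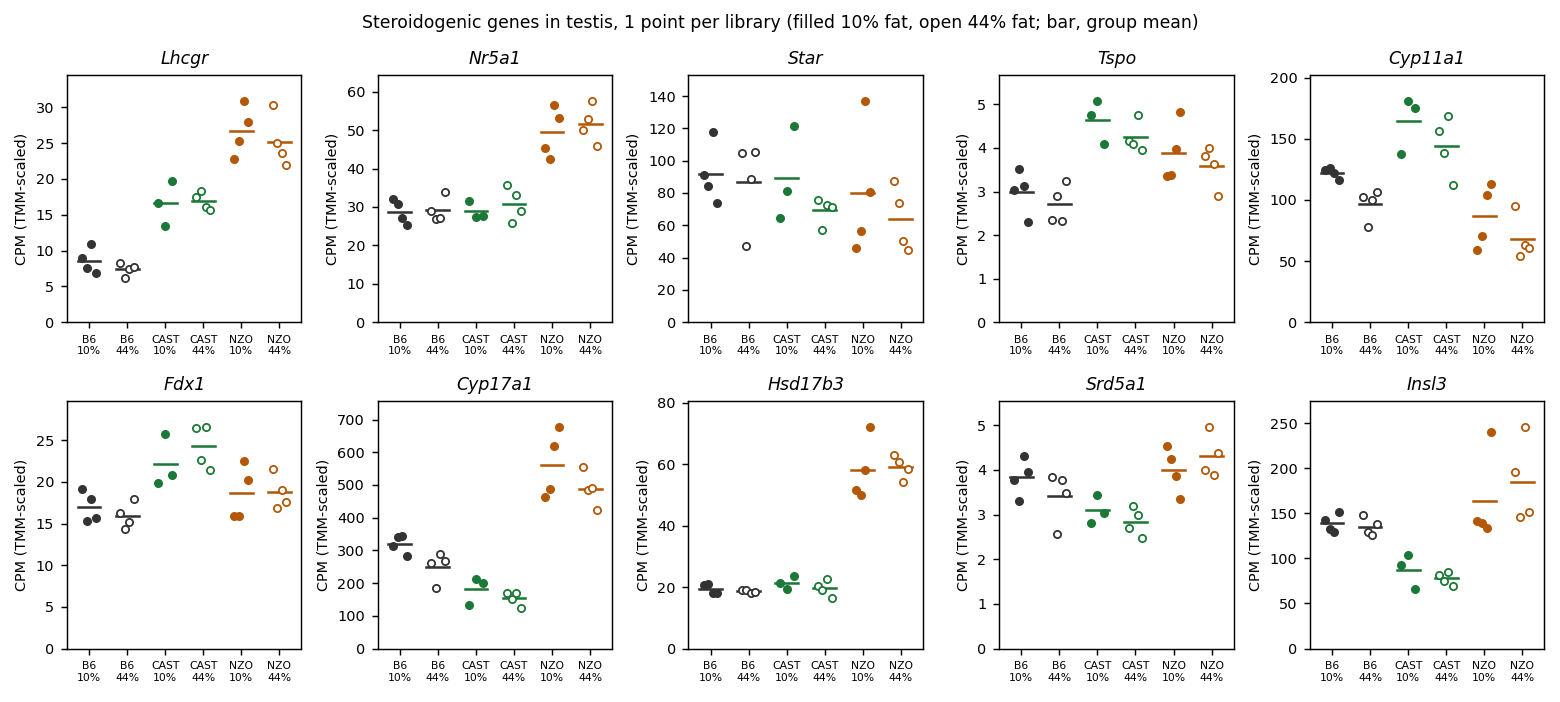
TMM-scaled CPM (vertical axes, from 0) of the 10 genes in each of the 23 libraries, by strain (B6 is C57BL/6J, CAST is CAST/EiJ, NZO is NZO/HlLtJ) and diet; filled points are 10% fat, open points 44% fat, bars group means. Hsd17b3 lies between 50.09 and 71.97 CPM in NZO/HlLtJ and between 16.37 and 23.47 CPM in every other library, and Star overlaps across all groups.

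Of the 10 genes, 8 passed the test between NZO/HlLtJ and C57BL/6J, 7 higher and 1 lower in NZO/HlLtJ. Between these strains 59.1% of all genes tested were called (30.4% higher, 28.7% lower), so most genes differed and the count of 8 in 10 is read against that share. The median log2 difference was 0.37 over the 10 genes and 0.01 over all genes tested. Between CAST/EiJ and C57BL/6J 7 passed, 4 higher and 3 lower in CAST/EiJ, beside 66.8% of all genes (32.7% higher, 34.1% lower), with a median of 0.07 against 0.00 over all genes. Between NZO/HlLtJ and CAST/EiJ 9 passed, 6 higher and 3 lower in NZO/HlLtJ, beside 72.1% of all genes (39.6% higher, 32.5% lower), with a median of 0.56 against 0.06. The 3 comparisons use the same libraries in pairs and are not independent of each other. Libraries of both strains did not overlap for 4 of the 10 genes between NZO/HlLtJ and C57BL/6J (26.3% of all genes), 4 between CAST/EiJ and C57BL/6J (39.1%) and 5 between NZO/HlLtJ and CAST/EiJ (43.9%).

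**Figure D2:**
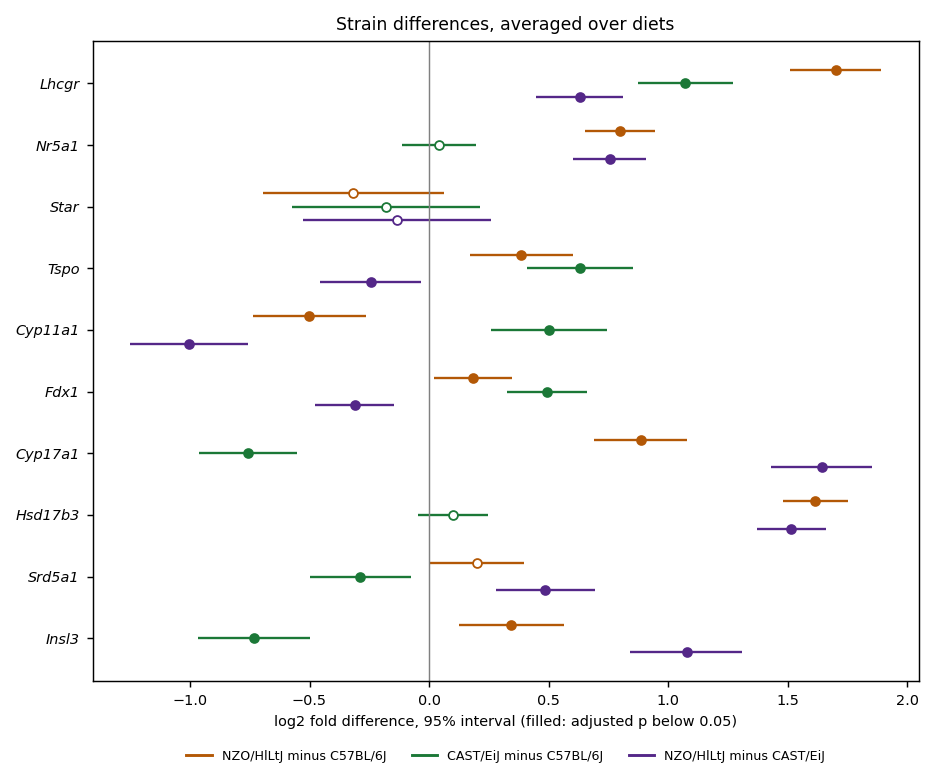
Strain differences of the 10 genes, averaged over diets: log2 fold difference (horizontal axis) with its 95% interval, filled where the adjusted p is below 0.05. Lhcgr lies to the right of 0 in all 3 comparisons, Cyp11a1 and Cyp17a1 lie on opposite sides of 0 in each, and all 3 intervals of Star span 0.

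Lhcgr (ENSMUSG00000024107, chr17:88716481-88791990, minus strand) encodes the receptor for luteinising hormone. In C57BL/6J its level was 8.919, 7.606, 10.95 and 6.936 CPM on 10% fat and 8.22, 6.17, 7.373 and 7.718 CPM on 44% fat. CAST/EiJ libraries were at 16.66, 13.47 and 19.73 CPM on 10% fat and 17.53, 18.36, 16.12 and 15.59 CPM on 44% fat. NZO/HlLtJ libraries were at 22.75, 25.33, 30.85 and 28 CPM on 10% fat and 30.37, 24.97, 23.54 and 21.95 CPM on 44% fat. The 3 strains did not overlap: every CAST/EiJ library lay above every C57BL/6J library, and every NZO/HlLtJ library above both. The log2 difference was 1.07 (SE 0.10, adjusted p = 6.07e-11) for CAST/EiJ against C57BL/6J and 1.70 (SE 0.09, adjusted p = 1.87e-15) for NZO/HlLtJ against C57BL/6J. NZO/HlLtJ exceeded CAST/EiJ by 0.63 (SE 0.09, adjusted p = 3.64e-07).

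Nr5a1 (ENSMUSG00000026751, chr2:38692656-38714542, minus strand) encodes the nuclear receptor that switches on many steroid synthesis genes in Leydig cells, and Sertoli cells of the tubules express it too. In C57BL/6J it was 32.02, 30.77, 27.09 and 25.36 CPM on 10% fat and 29.02, 26.81, 27.05 and 33.95 CPM on 44% fat. In CAST/EiJ it was 31.56, 27.38 and 27.73 CPM on 10% fat and 35.73, 25.76, 33.15 and 28.86 CPM on 44% fat. In NZO/HlLtJ it was 45.23, 42.61, 56.66 and 53.04 CPM on 10% fat and 49.91, 52.93, 57.56 and 45.97 CPM on 44% fat. NZO/HlLtJ stood alone above both other strains with no overlap. Its log2 difference was 0.80 against C57BL/6J (SE 0.07, adjusted p = 1.41e-10) and 0.76 against CAST/EiJ (SE 0.07, adjusted p = 4.18e-10). CAST/EiJ and C57BL/6J differed by 0.04 (95% interval -0.11 to 0.20, adjusted p = 0.646). Sertoli cell markers moved with it: 13 of 15 tested were higher and 0 lower in NZO/HlLtJ than in C57BL/6J, with a median log2 difference of 0.32, beside 30.4% higher, 28.7% lower and a median of 0.01 over all genes. Their summed level was 1292 to 1761 CPM in NZO/HlLtJ libraries and 1163 to 1252 CPM in C57BL/6J libraries, and 0 of the 15 markers were at 0 in any library. The part of Sertoli cells in the Nr5a1 result was not tested.

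Star (ENSMUSG00000031574, chr8:25806555-25815982, plus strand) encodes the protein that moves cholesterol to the inner mitochondrial membrane, the step that hormone regulates within minutes to hours. In C57BL/6J it was 91.31, 84.54, 117.8 and 73.54 CPM on 10% fat and 104.9, 47.46, 88.6 and 105.4 CPM on 44% fat. In CAST/EiJ it was 64.83, 81.07 and 121.6 CPM on 10% fat and 75.7, 57.25, 72.86 and 71.3 CPM on 44% fat. In NZO/HlLtJ it was 45.79, 56.27, 136.9 and 80.66 CPM on 10% fat and 87.71, 73.57, 50.04 and 44.66 CPM on 44% fat. All groups overlapped, and NZO/HlLtJ 10% fat held both a low library and the highest of the 23. Star had the widest spread of the 10 genes within groups, an SD of 0.47 in log2 CPM. None of the strain differences of Star passed the edgeR test: the log2 difference was -0.32 for NZO/HlLtJ against C57BL/6J (95% interval -0.69 to 0.06, adjusted p = 0.143), -0.18 for CAST/EiJ against C57BL/6J (adjusted p = 0.413) and -0.13 for NZO/HlLtJ against CAST/EiJ (adjusted p = 0.537). The first of these depended on single libraries: without NZO/HlLtJ 10% fat replicate 3 it was -0.51 (adjusted p = 0.0085), and without C57BL/6J 44% fat replicate 2 it was -0.42 (adjusted p = 0.0429).

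Tspo (ENSMUSG00000041736, chr15:83563592-83574203, plus strand) encodes a cholesterol-binding protein of the outer mitochondrial membrane and is expressed in many cell types. It was low, at 2.297 to 3.508 CPM for C57BL/6J, 3.948 to 5.075 CPM for CAST/EiJ and 2.897 to 4.815 CPM for NZO/HlLtJ. All CAST/EiJ libraries lay above all C57BL/6J libraries, with a log2 difference of 0.63 (SE 0.11, adjusted p = 7.84e-06). NZO/HlLtJ was higher than C57BL/6J by 0.39 (SE 0.10, adjusted p = 0.0023) with overlap. The difference of NZO/HlLtJ from CAST/EiJ, -0.24 (SE 0.10, adjusted p = 0.0365), lost its call when any of 6 single libraries was left out. Of its exon bases 53 (5.04%) are shared with Mcat on the opposite strand.

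Cyp11a1 (ENSMUSG00000032323, chr9:58006411-58027023, plus strand) encodes the side-chain cleavage enzyme, which commits cholesterol to steroid synthesis. In C57BL/6J it was 124.7, 126.2, 122.4 and 116.4 CPM on 10% fat and 102.6, 77.66, 100.2 and 106.3 CPM on 44% fat. In CAST/EiJ it was 137.8, 180.9 and 175.4 CPM on 10% fat and 156.6, 138.5, 169 and 111.9 CPM on 44% fat. In NZO/HlLtJ it was 58.78, 70.75, 104.3 and 112.7 CPM on 10% fat and 95.39, 53.84, 63.04 and 60.7 CPM on 44% fat. CAST/EiJ was highest and NZO/HlLtJ lowest on average, and each pair of strains overlapped. NZO/HlLtJ libraries at 95.39, 104.3 and 112.7 CPM lay inside the C57BL/6J range of 77.66 to 126.2 CPM. The log2 difference was 0.50 for CAST/EiJ against C57BL/6J (SE 0.12, adjusted p = 0.000526), -0.50 for NZO/HlLtJ against C57BL/6J (SE 0.12, adjusted p = 0.000518) and -1.0 for NZO/HlLtJ against CAST/EiJ (SE 0.12, adjusted p = 1.84e-08). It was the only one of the 10 genes called lower in NZO/HlLtJ than in C57BL/6J, and the call held when each library was left out in turn.

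Fdx1 (ENSMUSG00000032051, chr9:51943306-51963556, minus strand) encodes ferredoxin, which carries electrons to the side-chain cleavage enzyme. It was 14.3 to 19.2 CPM for C57BL/6J, 19.87 to 26.55 CPM for CAST/EiJ and 15.9 to 22.52 CPM for NZO/HlLtJ. CAST/EiJ lay wholly above C57BL/6J, by 0.49 in log2 (SE 0.08, adjusted p = 5.35e-06), beside 0.50 for Cyp11a1. NZO/HlLtJ was lower than CAST/EiJ by a log2 difference of -0.31 (SE 0.08, adjusted p = 0.00113). Against C57BL/6J the difference of 0.18 (SE 0.08, adjusted p = 0.04998) was on the edge of the threshold and was lost with DESeq2 (adjusted p = 0.108). It was also lost without C57BL/6J 10% fat replicate 4 (adjusted p = 0.0887), without NZO/HlLtJ 10% fat replicate 4 (adjusted p = 0.0942), without NZO/HlLtJ 44% fat replicate 3 (adjusted p = 0.07), and without several other single libraries, with an adjusted p of up to 0.152. Fdxr, the reductase that feeds electrons to ferredoxin, was 45.81 ± 4.17 CPM in NZO/HlLtJ (SD, n = 8), 22.67 ± 1.35 in C57BL/6J (n = 8) and 22.09 ± 1.04 in CAST/EiJ (n = 7), with a log2 difference of 1.05 between NZO/HlLtJ and CAST/EiJ (adjusted p = 1.82e-16).

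Cyp17a1 (ENSMUSG00000003555, chr19:46667165-46673172, minus strand) encodes the enzyme that hydroxylates progesterone and then cuts it to androstenedione. In C57BL/6J it was 314.9, 341.1, 344.3 and 283.8 CPM on 10% fat and 260.2, 185.5, 287.7 and 267.6 CPM on 44% fat. In CAST/EiJ it was 134.2, 214 and 200.5 CPM on 10% fat and 168.5, 152.9, 170.5 and 123.3 CPM on 44% fat. In NZO/HlLtJ it was 464.5, 486.9, 618.3 and 676 CPM on 10% fat and 555.1, 484, 491.5 and 422.6 CPM on 44% fat. NZO/HlLtJ stood above every other library, and CAST/EiJ lay below C57BL/6J but for the edge of both ranges. The log2 difference was 0.89 for NZO/HlLtJ against C57BL/6J (SE 0.10, adjusted p = 5.26e-09), -0.76 for CAST/EiJ against C57BL/6J (SE 0.10, adjusted p = 1.4e-07) and 1.64 for NZO/HlLtJ against CAST/EiJ (SE 0.10, adjusted p = 2.16e-14).

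The isomerase step that lies between these enzymes is carried by Hsd3b1 and Hsd3b6, related genes, some of whose reads the counting may split. Hsd3b1 was 59.23 ± 6.75 CPM for C57BL/6J, 67.64 ± 6.89 for CAST/EiJ and 317.5 ± 29.1 for NZO/HlLtJ, and Hsd3b6 was 83.42 ± 18.2, 31.99 ± 5.07 and 4.958 ± 1.496 CPM (SD; n = 8, 7 and 8). A split of reads between Hsd3b1 and Hsd3b6 does not touch their sum. This sum was 142.6 ± 14.5, 99.63 ± 9.002 and 322.4 ± 28.8 CPM in the same order of strains. It was thus high and low in the same strains as Cyp17a1.

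Hsd17b3 (ENSMUSG00000033122, chr13:64058266-64089230, minus strand) encodes the testis enzyme that reduces androstenedione to testosterone. In C57BL/6J it was 20.69, 20.86, 18.22 and 18.05 CPM on 10% fat and 19.13, 19.09, 18.17 and 18.31 CPM on 44% fat. In CAST/EiJ it was 21.28, 19.45 and 23.47 CPM on 10% fat and 20.25, 18.93, 22.62 and 16.37 CPM on 44% fat. In NZO/HlLtJ it was 51.69, 50.09, 58 and 71.97 CPM on 10% fat and 62.83, 60.75, 54.21 and 58.31 CPM on 44% fat. The gap between NZO/HlLtJ and the rest was wider than the whole range of C57BL/6J and CAST/EiJ together, and Hsd17b3 had the smallest spread of the 10 genes within groups, an SD of 0.15 in log2 CPM. The log2 difference of NZO/HlLtJ was 1.61 from C57BL/6J (SE 0.07, adjusted p = 4.86e-18) and 1.51 from CAST/EiJ (SE 0.07, adjusted p = 2.05e-17). CAST/EiJ differed from C57BL/6J by 0.10 (95% interval -0.05 to 0.25, adjusted p = 0.222).

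Srd5a1 (ENSMUSG00000021594, chr13:69573449-69611442, minus strand) encodes a reductase that turns testosterone into dihydrotestosterone. It was 2.573 to 4.311 CPM for C57BL/6J, 2.468 to 3.446 for CAST/EiJ and 3.347 to 4.952 for NZO/HlLtJ, from 84.94 to 211.7 estimated counts per library. CAST/EiJ was lower than C57BL/6J by a log2 difference of -0.29 (SE 0.10, adjusted p = 0.0152), and NZO/HlLtJ was higher than CAST/EiJ by 0.49 (SE 0.10, adjusted p = 9.79e-05). NZO/HlLtJ against C57BL/6J gave 0.20 (SE 0.10, adjusted p = 0.0751), which passed without NZO/HlLtJ 10% fat replicate 4 (adjusted p = 0.0358). These values are uncertain because 476 of its exon bases (16.4%) are shared with Gm17108 on the same strand. Gm17108 itself was 6.833 CPM for C57BL/6J, 2.76 for CAST/EiJ and 10.48 for NZO/HlLtJ. The sum of both was 10.46 ± 0.853, 5.708 ± 0.445 and 14.64 ± 0.790 CPM (SD; n = 8, 7 and 8), in the same order of strains with no overlap.

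Insl3 (ENSMUSG00000079019, chr8:71689214-71690575, plus strand) encodes the Leydig cell peptide that guides testis descent in the fetus. In C57BL/6J it was 142.9, 132.9, 128.8 and 151.3 CPM on 10% fat and 147.9, 128.8, 125.9 and 137.6 CPM on 44% fat. In CAST/EiJ it was 92.52, 103.3 and 66.56 CPM on 10% fat and 81.65, 74.73, 84.66 and 69.76 CPM on 44% fat. In NZO/HlLtJ it was 141.9, 139.1, 133.3 and 240.5 CPM on 10% fat and 195.9, 146, 245.3 and 151.3 CPM on 44% fat. CAST/EiJ lay below all other libraries, while NZO/HlLtJ reached from inside the C57BL/6J range to well above it. CAST/EiJ differed by -0.73 in log2 from C57BL/6J (SE 0.11, adjusted p = 2.31e-06), and NZO/HlLtJ by 1.08 from CAST/EiJ (SE 0.12, adjusted p = 2.3e-09). The difference of 0.34 between NZO/HlLtJ and C57BL/6J (SE 0.11, adjusted p = 0.00748) was smaller without the high libraries: it was 0.22 (adjusted p = 0.0312) without NZO/HlLtJ 10% fat replicate 4 and 0.16 (adjusted p = 0.083) without the 3 libraries that stood apart. Insl3 shares 404 exon bases (64.8%) with Jak3 on the same strand, and all its counts were estimates split between genes. Jak3 was 9.288 CPM for C57BL/6J, 17.45 for CAST/EiJ and 7.498 for NZO/HlLtJ, and Insl3 with Jak3 summed to 146.3 ± 9.69, 99.33 ± 14.0 and 181.7 ± 47.6 CPM, so the strains kept their order.

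Ratios inside a library do not depend on how libraries are scaled and show the change in balance between steps. The ratio of Cyp17a1 to Cyp11a1 CPM was 2.60 ± 0.176 for C57BL/6J (2.389 to 2.871), 1.08 ± 0.0731 for CAST/EiJ (0.9733 to 1.183) and 7.04 ± 1.13 for NZO/HlLtJ (5.819 to 8.989; SD, n = 8, 7 and 8). It separated the 3 strains without overlap, which neither gene did for every pair of strains. Hsd17b3 to Star was 0.230 ± 0.0774 for C57BL/6J, 0.271 ± 0.0535 for CAST/EiJ and 0.908 ± 0.272 for NZO/HlLtJ. Insl3 to Lhcgr was 17.6 ± 3.06 for C57BL/6J, 5.01 ± 1.38 for CAST/EiJ and 6.78 ± 1.91 for NZO/HlLtJ. Here C57BL/6J, with the lowest Lhcgr, stood above both other strains without overlap. Fdx1 to Cyp11a1 was 0.153 ± 0.0194 for C57BL/6J, 0.155 ± 0.0232 for CAST/EiJ and 0.253 ± 0.0479 for NZO/HlLtJ. The means of C57BL/6J and CAST/EiJ lay within their spread, and that of NZO/HlLtJ was higher. These ratios are descriptions and were not tested.

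**Figure D3:**
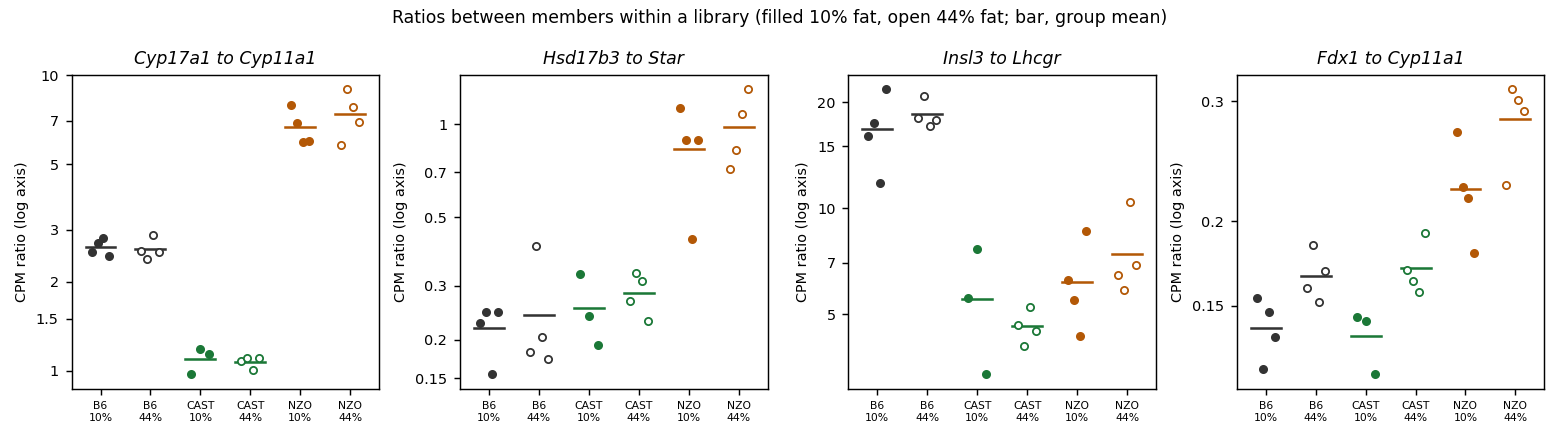
Ratios of CPM between pairs of genes inside each library (vertical axes, log scale) by strain (B6 is C57BL/6J, CAST is CAST/EiJ, NZO is NZO/HlLtJ) and diet; filled points are 10% fat, open points 44% fat, bars group means. Cyp17a1 to Cyp11a1 lies at 2.389 to 2.871 for C57BL/6J, 0.9733 to 1.183 for CAST/EiJ and 5.819 to 8.989 for NZO/HlLtJ.

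Set against the mean log2 CPM of the other 9 genes in the same library, Cyp11a1 stood 2.19 ± 0.134 above it for C57BL/6J, 2.63 ± 0.140 for CAST/EiJ and 1.02 ± 0.298 for NZO/HlLtJ. Hsd17b3 moved from -0.60 ± 0.175 in C57BL/6J and -0.59 ± 0.123 in CAST/EiJ to 0.62 ± 0.143 in NZO/HlLtJ. Star went from 1.83 ± 0.314 and 1.53 ± 0.320 to 0.85 ± 0.455 in the same order. Summed over the 10 genes the level was 700.4 ± 87.3 CPM for C57BL/6J, 576.7 ± 77.9 for CAST/EiJ and 1010 ± 165 for NZO/HlLtJ (SD; n = 8, 7 and 8). NZO/HlLtJ libraries, at 830.3 to 1291 CPM, lay above all others, and Cyp17a1 made up the largest share of the sum.

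Genes beside the 10 were taken from lists for steroid synthesis, regulators, cholesterol supply and Leydig cell markers, some genes being on more than 1 list. Their counts are read against all genes tested, of which 59.1% were called between NZO/HlLtJ and C57BL/6J (30.4% higher, 28.7% lower), 66.8% between CAST/EiJ and C57BL/6J (32.7% and 34.1%) and 72.1% between NZO/HlLtJ and CAST/EiJ (39.6% and 32.5%). Of 21 other steroid synthesis genes tested, 12 were higher and 3 lower in NZO/HlLtJ than in C57BL/6J, and 7 higher and 6 lower in CAST/EiJ than in C57BL/6J. Against CAST/EiJ, NZO/HlLtJ had 12 of them higher and 4 lower. The share called against C57BL/6J was 71.4% for NZO/HlLtJ and, for CAST/EiJ, 61.9%, below that of all genes. Sult1e1, which adds sulfate to estrogens, was 35.71 ± 5.84 CPM in NZO/HlLtJ against 13.67 ± 1.83 in C57BL/6J (log2 difference 1.39, adjusted p = 3.49e-13). Stard4, a carrier of cholesterol in the cytosol, was 24.15 ± 1.98 against 10.79 ± 1.34 CPM (log2 difference 1.16, adjusted p = 1.87e-14). Scarb1, the receptor that takes cholesterol from high-density lipoprotein, was highest in C57BL/6J at 115.3 ± 6.77 CPM, with 92.91 ± 5.13 in NZO/HlLtJ and 76.82 ± 8.17 in CAST/EiJ (adjusted p = 2.67e-06 and 4.37e-11 against C57BL/6J).

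Among 22 cholesterol supply genes 14 were higher and 3 lower in NZO/HlLtJ than in C57BL/6J, and 9 higher and 8 lower in CAST/EiJ than in C57BL/6J. Each is 77.3% of the list, beside 59.1% and 66.8% of all genes, and the CAST/EiJ split is near that of all genes (32.7% higher, 34.1% lower). Npc1, which lets cholesterol out of lysosomes, was 66.11 ± 4.11 CPM in CAST/EiJ and 8.545 ± 0.641 in C57BL/6J, a log2 difference of 2.96 (SE 0.06, adjusted p = 9.87e-27). NZO/HlLtJ was at 11.08 ± 1.05 CPM, also far below CAST/EiJ (adjusted p = 1.12e-25).

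Of 37 regulators of Leydig cells and of the hormone signal, 26 were higher and 5 lower in NZO/HlLtJ than in C57BL/6J, and 21 higher and 5 lower in CAST/EiJ than in C57BL/6J. These are 83.8% and 70.3% of the list, beside 59.1% and 66.8% of all genes. The CAST/EiJ share called in either direction is thus near the background. Its split by direction is not, since all genes had 32.7% higher and 34.1% lower in CAST/EiJ. Prlr, the prolactin receptor, was 96.11 ± 8.28 CPM in NZO/HlLtJ, 57.77 ± 7.89 in C57BL/6J and 44.34 ± 4.88 in CAST/EiJ. Esr1, an estrogen receptor, was 22.04 ± 1.34 CPM in NZO/HlLtJ, 17.6 ± 1.43 in CAST/EiJ and 9.763 ± 1.07 in C57BL/6J. Adcy3, an enzyme that makes cyclic AMP, was 15.6 ± 0.832 CPM in CAST/EiJ against 5.132 ± 0.577 in C57BL/6J (log2 difference 1.61, adjusted p = 1.97e-18). Pde4a, an enzyme that breaks cyclic AMP down, was 173.5 ± 10.9 CPM in CAST/EiJ against 93.96 ± 5.59 in C57BL/6J (log2 difference 0.87, adjusted p = 4.94e-17). Genes for making and for breaking down cyclic AMP were thus both among those higher in CAST/EiJ.

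Of 14 other Leydig cell markers 9 were higher and 3 lower in NZO/HlLtJ than in C57BL/6J, and 2 higher and 8 lower in CAST/EiJ than in C57BL/6J. These are 85.7% and 71.4% of the list, beside 59.1% and 66.8% of all genes. Their summed level was 961 to 1095 CPM for C57BL/6J, 599.5 to 711.4 for CAST/EiJ and 1232 to 1584 for NZO/HlLtJ, with 0 markers at 0. Fabp3, a fatty acid carrier, was 200 ± 28.8 CPM in NZO/HlLtJ against 40.65 ± 2.60 in CAST/EiJ. Agt, the precursor of angiotensin, was 1 of the 3 called lower in NZO/HlLtJ than in C57BL/6J, with Hsd3b6 and Scarb1, and was also called lower in CAST/EiJ. It was 180.6 ± 13.4 CPM in C57BL/6J, 3.987 ± 1.19 in NZO/HlLtJ and 1.623 ± 0.21 in CAST/EiJ. The sum of the markers had the order of the summed 10 genes, NZO/HlLtJ above C57BL/6J above CAST/EiJ. For the 10 genes the sums of C57BL/6J (511.3 to 795 CPM) and CAST/EiJ (464.9 to 673.9 CPM) overlapped. Their mean log2 CPM, which a single high gene moves less, was 4.79 ± 0.153 for C57BL/6J and 4.87 ± 0.122 for CAST/EiJ, within their spread.

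Other cell types differed between strains as well. In NZO/HlLtJ against C57BL/6J 7 of 10 progenitor and stroma markers were higher and 0 lower, 7 of 10 macrophage markers were higher and 0 lower, and of the markers of late spermatids 0 of 8 were higher and 7 lower, beside 30.4% higher and 28.7% lower of all genes. Summed late spermatid markers were 8646 to 11260 CPM in NZO/HlLtJ and 10520 to 12520 in C57BL/6J. Summed endothelial markers overlapped, at 50.42 to 58.94 CPM in NZO/HlLtJ and 51.29 to 64.62 in C57BL/6J. Peritubular myoid markers did too, at 380.9 to 407.6 and 373.4 to 408.8 CPM. In CAST/EiJ 0 of 7 myoid markers were higher and 7 lower than in C57BL/6J, beside 34.1% lower of all genes. Their sum there was 212.7 to 245.5 CPM. The part of these cell types in the strain differences of the 10 genes was not tested. Adrenal cortex expresses several of the 10 genes, and Cyp21a1, its hydroxylase gene, was 23.79 ± 4.93 CPM in NZO/HlLtJ against 1.159 ± 0.248 in C57BL/6J. Of 4 adrenal markers tested 2, Cyp21a1 and Mrap, were higher in NZO/HlLtJ than in C57BL/6J. Mrap was 3.367 ± 1.23 against 2.556 ± 0.572 CPM. In NZO/HlLtJ the remaining markers were low, with Cyp11b1 at 1.102 ± 0.164, Cyp11b2 at 0.05913 ± 0.0476 and Akr1b7 at 0.2749 ± 0.111 CPM. The 5 such markers in the count table summed to 21.82 to 35.13 CPM in NZO/HlLtJ and 4.424 to 6.615 CPM in C57BL/6J, with up to 1 of them at 0 in a library.

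Diet was compared as 44% fat minus 10% fat in each strain, averaged over strains, and as a difference of the diet effect between strains. None of the 10 genes was called by edgeR in any of these comparisons. The share of all genes called was 0.00874% in C57BL/6J, 0% in CAST/EiJ, 0.00437% in NZO/HlLtJ and 0% averaged over strains or for any difference between strains, so hardly any gene passed in this tissue. DESeq2 called 2, 3, 7 and 4 genes in these first 4 comparisons, and limma 1, 1, 0 and 0, with 0 of the 10 among them. At an unadjusted p below 0.05 edgeR listed 2 of the 10 genes and 670 of all genes (2.93%) in C57BL/6J, 0 and 941 (4.11%) in CAST/EiJ, 1 and 1555 (6.8%) in NZO/HlLtJ, and 2 and 896 (3.92%) averaged over strains. For the difference of the diet effect across all strains at once it listed 0 of the 10 and 1121 genes (4.9%), and the lowest adjusted p among the 10 was 0.943.

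Of the 10 genes, Cyp11a1 and Cyp17a1 had the smallest unadjusted p-values. Cyp11a1 was 122.4 ± 4.33 CPM on 10% fat and 96.68 ± 12.9 on 44% fat for C57BL/6J (n = 4 each), 164.7 ± 23.4 and 144 ± 24.8 for CAST/EiJ (n = 3 and 4), and 86.61 ± 25.9 and 68.24 ± 18.5 for NZO/HlLtJ (n = 4 each). Its mean was lower on 44% fat in all 3 strains, and the averaged log2 difference was -0.29 (95% interval -0.49 to -0.10, edgeR adjusted p = 1). In C57BL/6J its libraries did not overlap between diets, as for 2.09% of all genes. In CAST/EiJ and NZO/HlLtJ 0 of the 10 genes were free of overlap between diets, beside 5.29% and 3.58% of all genes. Cyp17a1 was 321 ± 28.1 and 250.2 ± 44.7 CPM for C57BL/6J, 182.9 ± 42.8 and 153.8 ± 21.8 for CAST/EiJ, and 561.4 ± 102 and 488.3 ± 54.2 for NZO/HlLtJ in the same order of diets. Its averaged log2 difference was -0.27 (95% interval -0.43 to -0.11, edgeR adjusted p = 1). The ID numbers in the sample titles fall into 3 runs, and NZO/HlLtJ libraries of both diets share only the lowest-numbered run. In that run Cyp11a1 in NZO/HlLtJ was 58.78 and 70.75 CPM on 10% fat and 95.39 and 53.84 on 44% fat, and Cyp17a1 was 464.5 and 486.9 against 555.1 and 484. In CAST/EiJ the same run held 1 library per diet, with 137.8 CPM on 10% fat and 156.6 on 44% fat for Cyp11a1, and 134.2 and 168.5 for Cyp17a1. The lower means on 44% fat thus did not hold within that run in these strains. In the higher-numbered runs CAST/EiJ was lower on 44% fat. Cyp11a1 was 180.9 CPM on 10% fat against 138.5 and 169 on 44% fat, then 175.4 against 111.9. Cyp17a1 was 214 against 152.9 and 170.5, then 200.5 against 123.3. C57BL/6J, with both diets in every run, had Cyp11a1 at 124.7 against 102.6, then 126.2 against 77.66, then 122.4 and 116.4 against 100.2 and 106.3. Its Cyp17a1 was 314.9 against 260.2, then 341.1 against 185.5, then 344.3 and 283.8 against 287.7 and 267.6. With the run as a covariate the averaged log2 difference was -0.26 for Cyp11a1 and -0.24 for Cyp17a1. Neither passed. The intervals given above, from the fit without the run, allow a decrease from slight to about 0.49 in log2.

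The other genes had averaged diet differences on either side of 0. Star had the widest averaged interval, -0.57 to 0.06 in log2. Hsd17b3 had the narrowest, -0.17 to 0.06, and Nr5a1 lay between -0.06 and 0.18. The median log2 difference over the 10 genes was -0.13 in C57BL/6J, -0.13 in CAST/EiJ, -0.04 in NZO/HlLtJ and -0.08 averaged, against 0.00 over all genes in each. Insl3 had opposite signs by strain, 0.17 in NZO/HlLtJ (95% interval -0.14 to 0.48) and -0.17 in CAST/EiJ (-0.51 to 0.17), and their difference of 0.34 (-0.12 to 0.80) was not called. Of the lists beside the 10 genes, 0 members were called by diet. Hsd3b1 and Hsd3b6, on these lists, had averaged log2 differences of 0.15 (95% interval 0.05 to 0.25) and -0.34 (-0.55 to -0.12), neither called.

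**Figure D4:**
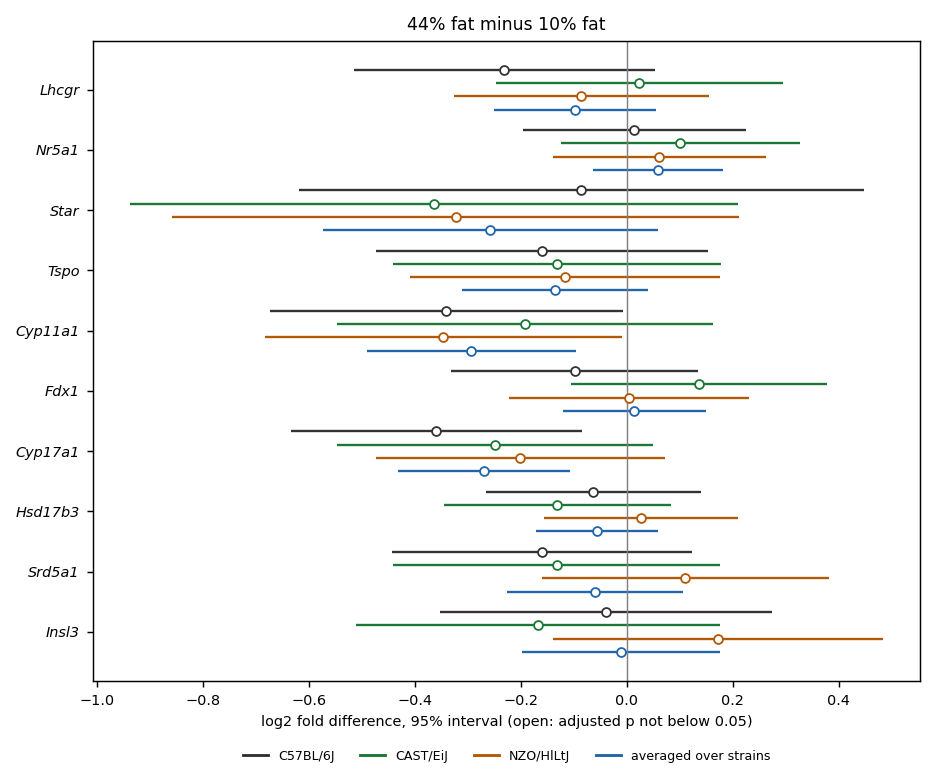
Diet differences, 44% fat minus 10% fat, of the 10 genes: log2 fold difference (horizontal axis) with its 95% interval, by strain and averaged over strains; open points have an adjusted p not below 0.05. All points are open, and the averaged intervals of Cyp11a1 and Cyp17a1 alone lie wholly to the left of 0.

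Within groups the genes varied together to unequal degrees. After the mean of its group was subtracted from each log2 CPM, Pearson's r over the 23 libraries had a median of 0.39 across the 45 pairs of genes, from -0.35 to 0.83. The highest values joined Cyp11a1 with Cyp17a1 (0.83) and with Fdx1 (0.82), and Lhcgr with Star (0.76). Against the mean of the other 9, r was 0.85 for Cyp11a1, 0.83 for Cyp17a1, 0.82 for Fdx1 and 0.69 for Star, but 0.22 for Insl3 and -0.06 for Srd5a1. Libraries share their scaling and their cell make-up, so these values describe the libraries and carry no test.

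**Figure D5:**
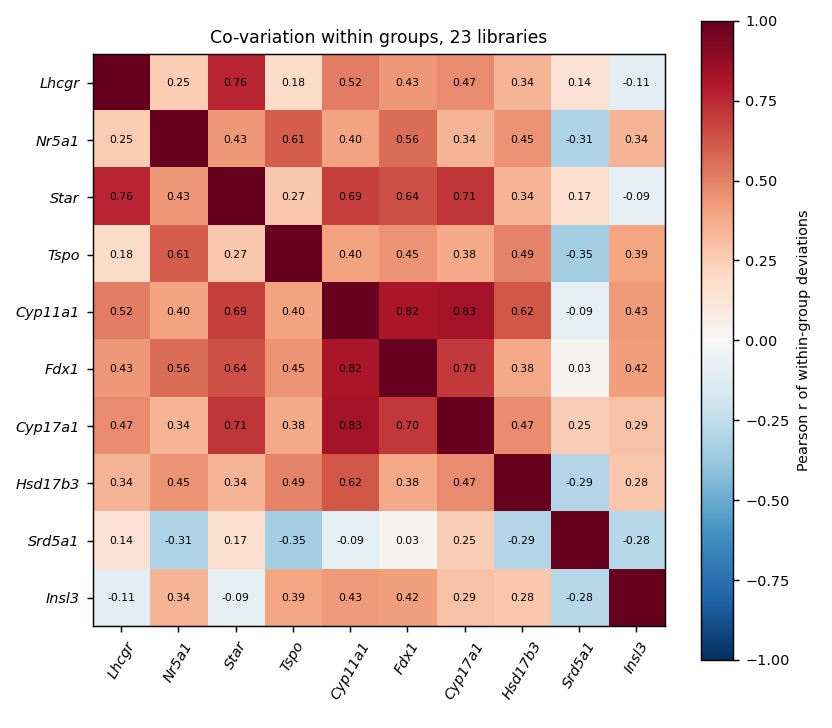
Pearson's r between the within-group deviations of log2 CPM of each pair of the 10 genes over 23 libraries (red positive, blue negative, value in each cell). Cyp11a1, Fdx1, Cyp17a1 and Star form the block of high values, and Srd5a1 is near or below 0 with most others.

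Among 12368 other genes with a mean of at least 5 CPM, those whose deviations were most like the mean of the 10 were Fads1 (r = 0.94), Ass1 (0.93), Fads2 (0.93), Slc7a5 (0.89) and Srebf2 (0.86), over the same 23 libraries. Fads1 and Fads2 encode fatty acid desaturases, Ass1 an enzyme of arginine synthesis, Slc7a5 an amino acid carrier and Srebf2 the main regulator of cholesterol synthesis. Of the lists, the mean of the cholesterol supply genes had r = 0.78 with the mean of the 10 genes, other Leydig cell markers 0.56 and macrophage markers 0.56, while spermatocyte markers had -0.47. Library means of the 10 genes lay between -0.23 and 0.22 in log2 from their group, lowest in C57BL/6J 44% fat replicate 2 and highest in NZO/HlLtJ 10% fat replicate 4.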

How the data were processed

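PolyA RNA of testis was sequenced as paired reads of 100 bases, per the labels. The authors deposited estimated counts per gene, made with a counting tool and annotation release not given in the sources used here. Of these values 22.6% were not whole (tolerance 0.001), and all were rounded for the count tests. A further table by the authors holds log2 values from a variance-stabilising transformation, used in 1 alternative with limma. The submitters' processing notes name GRCm38 and DESeq2. How variants of the strains were handled is not given, and its effect on counts was not tested.

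Genes were filtered with filterByExpr on the 6 groups, scaled by TMM and fitted with 1 mean per group over all 23 libraries in edgeR 4.0.16 (quasi-likelihood F test, R 4.3.3). Benjamini-Hochberg adjustment ran over 22873 genes, with a threshold of 0.05 and no fold limit. Strain differences were averaged over diets. Intervals are 95%. Log2 CPM used a prior count of 2. The code was tested on simulated data. Groups came from the strain and diet labels.

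The 10 genes and the gene lists were chosen with earlier results of these data known. Named list genes were, per strain comparison, up to 3 per list and direction with the largest called difference and at least 5 CPM; a selection of these is named, with markers of other cell types. Hsd3b1 and Hsd3b6 were always named. Alternatives were DESeq2 1.42.0, limma 3.58.1 on the authors' values, other scalings, no filter, single diets, the run of sample ID numbers as a covariate, each library left out, and 2 sets of libraries left out. Values are mean ± SD over libraries.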

Additional observations from a re-analysis of the deposited data

Results flagged for a closer look

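Insl3 in NZO/HlLtJ 10% fat replicate 4 was 240.5 CPM, while the other 3 libraries of that group lay between 133.3 and 141.9 CPM. The gap to the nearest library exceeded Dixon's 95% limit for groups of 4. Of 50 such groups examined this was the only one past the limit, and chance alone would put about 1 in 20 past it. The same library stood apart in an earlier analysis of these data, and Insl3 without it is given in the report.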

How the results depend on the processing

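Of the values of single genes under alternatives, 0 changed sign while called. Leaving out each library in turn gave 2530 values, of which 2507 stayed on their side of the threshold, 20 lost and 3 gained a call. Other settings gave 1030 values, of which 1011 stayed, 17 lost and 2 gained a call. Differences that were not called changed sign 94 and 20 times. The count of the 10 genes called without 1 library was 7 to 7 for CAST/EiJ against C57BL/6J, 7 to 8 for NZO/HlLtJ against C57BL/6J, 8 to 9 for NZO/HlLtJ against CAST/EiJ and 0 to 0 for every diet comparison. Calls that were lost belonged to Fdx1 (NZO/HlLtJ against C57BL/6J, adjusted p = 0.12 with limma, and against CAST/EiJ on 10% fat alone, adjusted p = 0.077), Insl3 (NZO/HlLtJ against C57BL/6J, adjusted p = 0.0713 with limma and 0.22 on 10% fat alone), Srd5a1 (CAST/EiJ against C57BL/6J, adjusted p = 0.0954 and 0.0926 within single diets) and Tspo (NZO/HlLtJ against CAST/EiJ, adjusted p = 0.157 and 0.142 within single diets, 0.0628 with the ID run as covariate). Single diets have fewer libraries. On the authors' transformed scale, which compresses low genes, the Lhcgr difference of NZO/HlLtJ from C57BL/6J was 1.04, still called. All genes called by diet without 1 library ranged from 0 to 2 in C57BL/6J, 0 to 3 in CAST/EiJ and 0 to 5 in NZO/HlLtJ. Ratios between genes cannot change with scaling. No paired analysis was possible because the labels give no replicate numbers that pair libraries; the run of ID numbers, which groups libraries but does not pair them, was fitted as a covariate. Without CAST/EiJ 44% fat replicate 2 and C57BL/6J 10% fat replicate 2, a choice made after seeing the data, the counts of the 10 genes called were 7, 7 and 9 in the same order of strains and 0 by diet. Depth limits Tspo, with as few as 50 counts in a library.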
